A study of Mus musculus with 6 samples.

Results

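The 48 genes described here encode the proteins that choose DNA replication origins, open them and copy DNA at the fork. They were taken by symbol from a set list of named subunits and factors, and all 48 were found among the 54532 genes of the table. The list was chosen with earlier results of these data known, and its members were kept whatever their values. The libraries came from whole mouse testis on postnatal day 9: 3 from wild-type mice and 3 from mice with a conditional knockout of Ppp6r3, written Ppp6r3 cKO. The product of Ppp6r3 is a subunit that directs protein phosphatase 6. The Cre driver, the deleted exons and the strain are not given in the labels. Nor do the labels state that the samples of a group were separate animals, so the p-values describe the spread between these samples, part of which may be technical.

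Replication is prepared in G1, when the origin recognition complex (ORC), Cdc6 and Cdt1 load rings of Mcm2 to Mcm7 onto DNA, which is called licensing. In S phase the kinase Cdc7 with its activator Dbf4 and the factors Cdc45 and GINS turn a loaded ring into a running helicase. Primase and polymerase alpha then lay primers, polymerases epsilon and delta extend them, the clamp PCNA holds the polymerases on DNA, and ligase joins the fragments. In the testis these genes serve the mitotic divisions of spermatogonia, the DNA synthesis before meiosis and dividing somatic cells.

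The deposited expression level is FPKM, the number of fragments of a gene divided by its exon length and by the depth of the library. A gene "changed" where limma, run on log2(FPKM + 0.1) over 17658 tested genes, gave an adjusted p under 0.05. Log2 fold changes are Ppp6r3 cKO minus wild type. Gene coordinates come from GENCODE M21 (mm10) and span the whole gene, and all 48 members are protein-coding. The depth inferred from the steps between values was 15970908 to 16606867 fragments per library. Summing recovered fragments over all genes gave 98.9% to 100.7% of it, over 100% in Ppp6r3 cKO replicate 1, so the inferred depth is approximate. Each member had 58 to 4581 fragments per library. Of the germ cell and somatic marker genes of testis, none was at 0 in all 6 libraries. The summed level of 10 shared germ cell genes was 495 to 525 FPKM in wild type and 458 to 503 FPKM in Ppp6r3 cKO. Ppp6r3 itself went from 21.025 ± 0.257 to 15.4 ± 0.458 FPKM (SD, n = 3 each).

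Stretches of 3 promoters show the sequence context of the helicase ring, whose genes are textbook targets of the E2F transcription factors. They were chosen after their values and motifs were seen: Mcm5 fell, Mcm2 rose and Mcm6 did not pass. All lie before the RefSeq start of the gene on GRCm38.p6 and are written 5′ to 3′ on the strand of the gene, with E2F letters and CCAAT boxes (ATTGG on the other strand) in capitals.
Mcm5, chr8:75109296-75109427, plus strand: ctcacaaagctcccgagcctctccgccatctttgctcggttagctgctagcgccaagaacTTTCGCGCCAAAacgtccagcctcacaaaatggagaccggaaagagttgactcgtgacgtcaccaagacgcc
Mcm6, chr1:128359706-128359875, minus strand: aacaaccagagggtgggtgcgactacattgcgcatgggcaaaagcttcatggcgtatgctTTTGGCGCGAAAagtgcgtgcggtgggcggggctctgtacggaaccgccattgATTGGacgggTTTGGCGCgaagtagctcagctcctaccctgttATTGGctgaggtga
Mcm2, chr6:88898891-88899015, minus strand: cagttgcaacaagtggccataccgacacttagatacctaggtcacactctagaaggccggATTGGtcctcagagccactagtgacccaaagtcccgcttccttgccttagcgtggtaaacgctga

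In Mcm5 the E2F letters TTTCGCGC and GCGCCAAA overlap, and in Mcm6 TTTGGCGC and GCGCGAAA do. The Mcm2 stretch holds a CCAAT box and no E2F letters. The Mcm5 stretch holds no CCAAT box, but the promoter it was cut from holds 2. Across the RefSeq promoter table, which covers 250 bases before and 50 after the start and matched 40 of the 48 members, E2F letters (TTT, then 2 letters each C or G, then CGC, on either strand) stood in 16 members (40%). They stood in 32.7% of the members' 49 windows and in 2.26% of all 32851 windows. They were found in 3 of 8 members that fell, 1 of 2 that rose and 12 of 30 that did not pass. CCAAT on either strand stood in 55.1% of member windows and 37.4% of all windows. The CHR letters (TTTGAA or TTCGAA, either strand), known from genes of late cell cycle phases, stood in 20.4% and 19.2%. A match here is a description of letters.

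Of the 48 members, 12 changed between genotypes (25%), where 15.5% of all tested genes changed. The members' median level lay at percentile 77.0 of tested genes, and the share that changed among genes of like level was not counted. In all, 10 fell (7.86% of tested genes fell), 2 rose (7.67% of tested genes rose) and 36 did not pass. The 10 that fell were Cdc7, Prim1, Pole, Mcm8, Rrm2, Mcm5, Rfc4, Prim2, Cdc45 and Lig1, and the 2 that rose were Cdt1 and Mcm2. The members' median log2 fold change was -0.05, beside 0.00 over all tested genes, and 32 of 48 were below 0 (66.7%, beside 49.5% of tested genes). After the GC and length correction described with the libraries below, the median was -0.02 for the members and 0.02 over all genes fitted. The highest Ppp6r3 cKO value was under the lowest wild-type value in 18 members (18.2% of tested genes), and the reverse held in 4 (18.8%). The groups overlapped in the other 26, while in 37% of tested genes they did not overlap, in either direction. Changes were small: members that fell stood at 75.9% to 90.8% of the wild-type mean. Fewer cells of a type and less RNA per cell cannot be told apart in whole tissue. Without wild-type replicate 1, 2 or 3, 8, 6 and 7 members changed, beside 9.2%, 7.03% and 7.54% of all tested genes. Without Ppp6r3 cKO replicate 1, 2 or 3, 10, 9 and 10 changed, beside 13.6%, 10.5% and 10.8%, so the calls became fewer over the whole table and not only among the members.

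**Figure D1:**
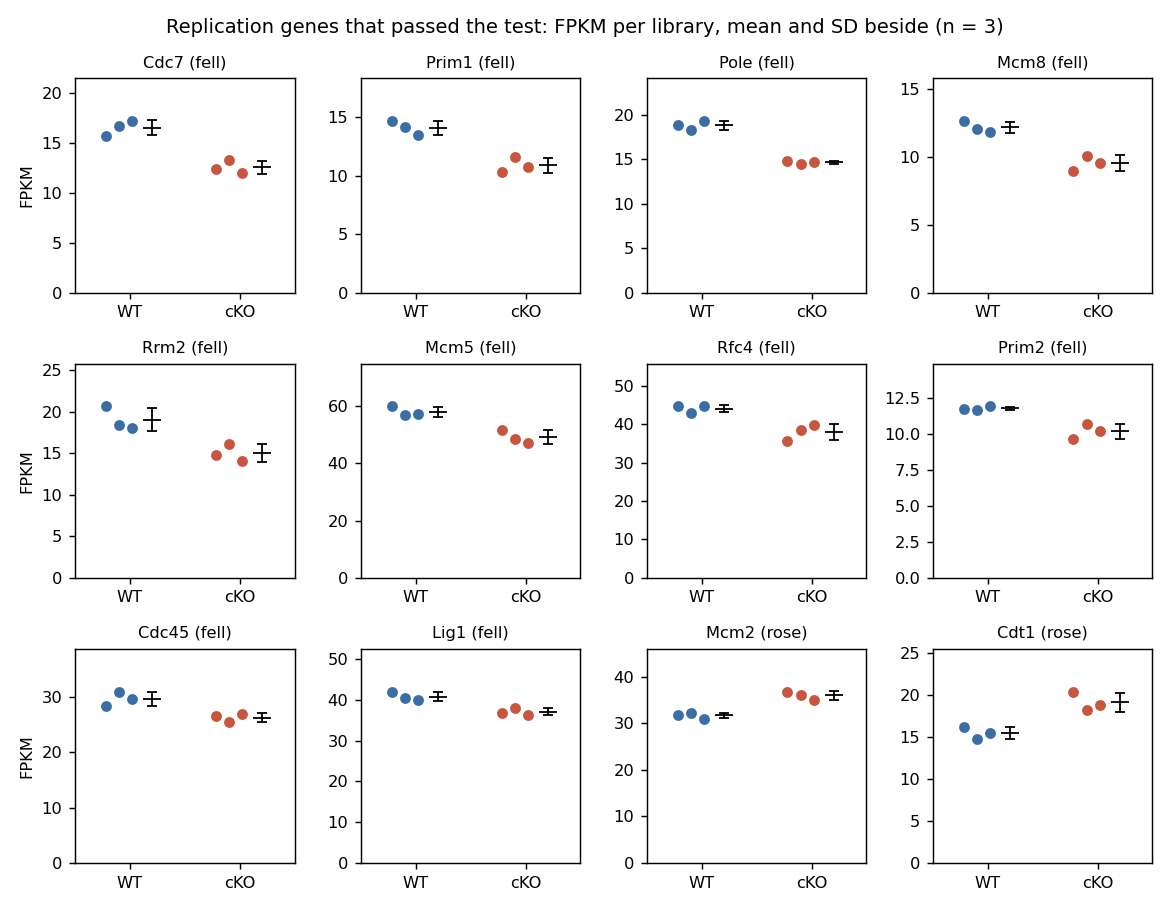
FPKM of the 12 members that changed, in each of the 6 libraries (points), with the group mean and SD (bars). The groups do not overlap in any of the 12, and Cdt1 and Mcm2 are the only members of the 12 with higher Ppp6r3 cKO values.

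Summed over the 48 members, the level was 1125.3, 1100.2 and 1109.9 FPKM in the wild-type libraries and 1052.9, 1075.7 and 1063 FPKM in the Ppp6r3 cKO libraries. The Ppp6r3 cKO mean was 95.7% of the wild-type mean, and the groups did not overlap. Members were well expressed: their median level was 16.2 FPKM, beside 5.19 FPKM over tested genes, from Fen1, the flap nuclease, at 1.598 FPKM to Pcna, the sliding clamp, at 79.5 FPKM. Fen1 had 58 to 68 fragments per library, and 84.2% of its exon bases overlap genes on the opposite strand. How fragments of overlapping genes were counted is not given, so the Fen1 level is uncertain. The median coefficient of variation between replicates was 2.90% in wild type and 4.54% in Ppp6r3 cKO.

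**Figure D2:**
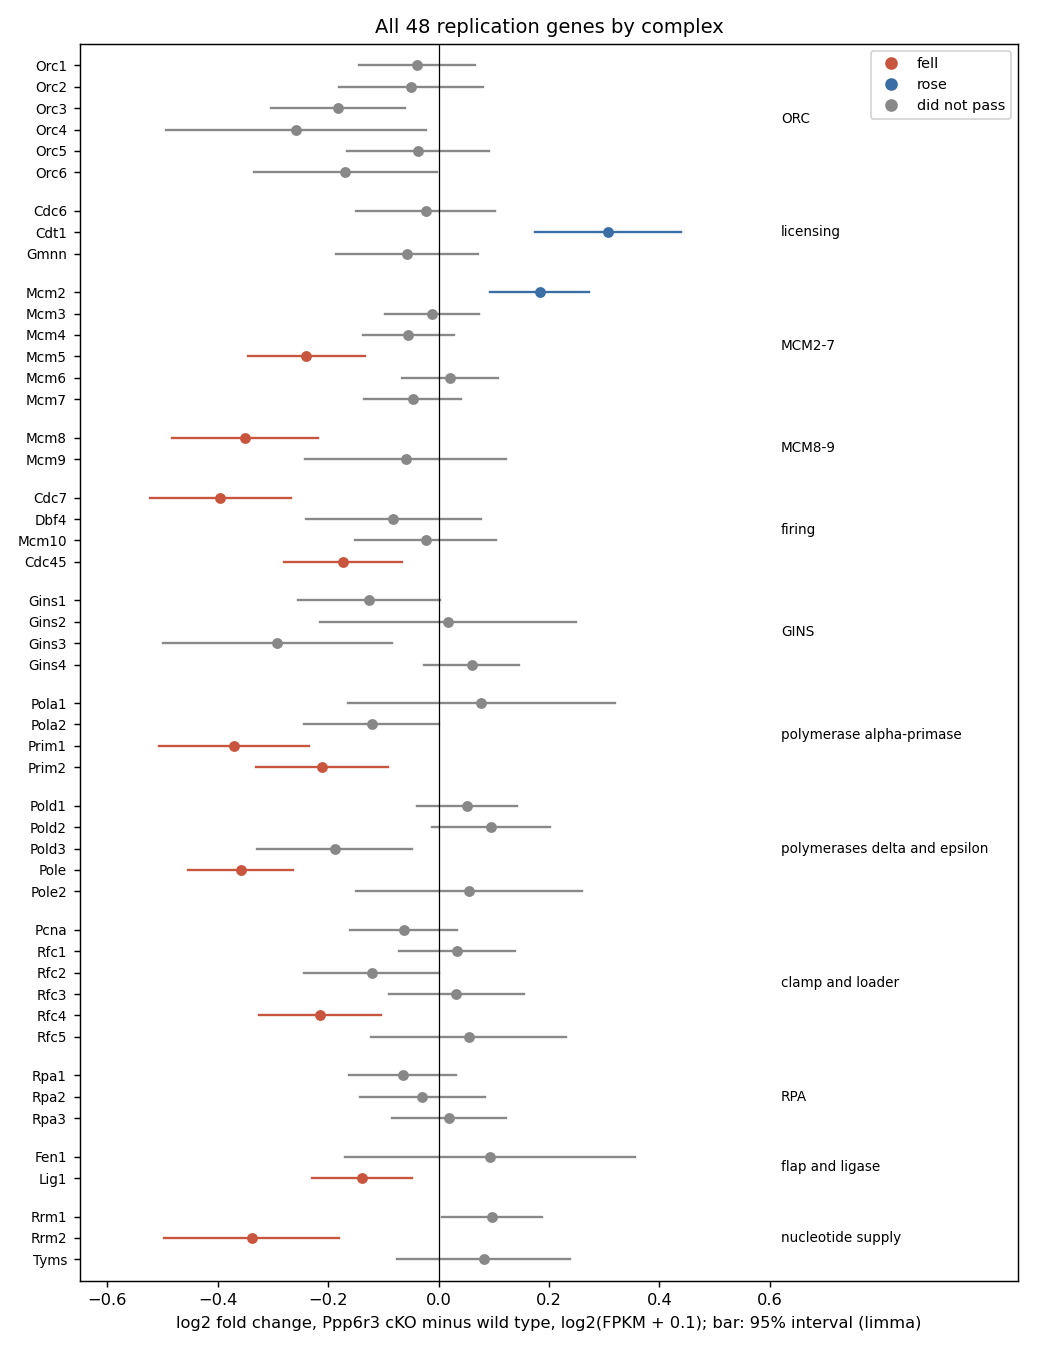
Log2 fold change (Ppp6r3 cKO minus wild type) with its 95% interval for the 48 members, by complex. The intervals are per gene and not adjusted, so an interval can miss 0 where the adjusted p does not pass, as for Orc3.

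No ORC gene passed the threshold with limma. Voom, a test on the fragments recovered from FPKM, called 3 of 6 lower, beside 12.2% of tested genes called lower. These 3 were Orc3, Orc4 and Orc6, whose groups did not overlap (all Ppp6r3 cKO values were lower in 18.2% of tested genes). The same 3 had an unadjusted limma p under 0.05, for which the share of tested genes was not counted. Over all members voom called 17, beside 23.2% of tested genes. Orc3 stood at 12.4, 13.0 and 13.4 FPKM in wild type and 11.6, 10.9 and 11.8 FPKM in Ppp6r3 cKO (log2 fold change -0.18, SE 0.0529, limma adjusted p = 0.0526). Orc4, the lowest ORC gene at 4.78 FPKM, had a log2 fold change of -0.26 (limma adjusted p = 0.128). Orc6, the highest at 24.3 FPKM, had a log2 fold change of -0.17 (limma adjusted p = 0.154). Orc1, Orc2 and Orc5 lay between -0.05 and -0.04 with overlapping groups, and 29.8% of the Orc2 exon bases overlap Nif3l1 on the opposite strand. The median of the 6 was -0.11, and -0.05 after the correction for GC content and length described with the libraries below.

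Of the 3 licensing genes, Cdt1 rose and Cdc6 and Gmnn did not pass. Cdt1, which brings the helicase ring to ORC (ENSMUSG00000006585, chr8:122568015-122573554, plus strand), stood at 16.2, 14.7 and 15.5 FPKM in wild type and 20.4, 18.3 and 18.7 FPKM in Ppp6r3 cKO. Every Ppp6r3 cKO library was above every wild-type library (log2 fold change 0.31, SE 0.0576, limma adjusted p = 0.0115). Without wild-type replicate 2 its adjusted p was 0.0501. Gmnn, which encodes geminin, the inhibitor of Cdt1, was the highest of the 3 at 39.7 FPKM, with a log2 fold change of -0.06. Cdc6, the ATPase that works with Cdt1, was the lowest at 8.82 FPKM, with a log2 fold change of -0.02.

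In the helicase ring 1 gene rose, 1 fell and 4 did not pass. Mcm5 (ENSMUSG00000005410, chr8:75109569-75128439, plus strand) stood at 59.9, 56.7 and 57.3 FPKM in wild type and 51.7, 48.6 and 47.0 FPKM in Ppp6r3 cKO, and fell by 0.24 in log2 units (SE 0.0461, limma adjusted p = 0.0126). Mcm2 (ENSMUSG00000002870, chr6:88883474-88898780, minus strand) stood at 31.9, 32.2 and 31.001 FPKM in wild type and 36.8, 36.2 and 35.018 FPKM in Ppp6r3 cKO, and rose by 0.18 (SE 0.0391, limma adjusted p = 0.0183). The 2 genes moved in opposite directions with no overlap of groups in either. Mcm2 was at 0.12 after the GC and length correction (adjusted p = 0.036), and its call was lost without wild-type replicate 1, 2 or 3 (adjusted p 0.0551, 0.0572 and 0.0752) or Ppp6r3 cKO replicate 2 (0.0529). Mcm3, Mcm4, Mcm6 and Mcm7 lay between -0.05 and 0.02. Mcm7 was the highest of the ring at 59.5 FPKM and Mcm4 the lowest at 27.5 FPKM. The summed level of the 6 went from 278.3 ± 4.42 to 271.05 ± 4.55 FPKM (SD, n = 3 each), 97.4% of wild type.

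Mcm8 and Mcm9 are relatives of the ring that form a helicase of homologous recombination, which meiosis also uses. Mcm8 (ENSMUSG00000027353, chr2:132816141-132844197, plus strand) stood at 12.6, 12.012 and 11.9 FPKM in wild type and 8.93, 10.1 and 9.57 FPKM in Ppp6r3 cKO. It fell by 0.35 (SE 0.0580, limma adjusted p = 0.00715), to 78.3% of wild type. Mcm9 was at 3.42 FPKM with overlapping groups (log2 fold change -0.06), and 19.2% of its exon bases overlap Asf1a on the opposite strand.

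Of the 4 firing factors, Cdc7 and Cdc45 fell. Cdc7, the kinase that phosphorylates the loaded ring (ENSMUSG00000029283, chr5:106964322-106984432, plus strand), stood at 15.7, 16.7 and 17.2 FPKM in wild type and 12.4, 13.3 and 11.999 FPKM in Ppp6r3 cKO. Among the 48 members it had the largest change, a fall of 0.40 (SE 0.0557, limma adjusted p = 0.00392). Dbf4, its activating subunit, had a log2 fold change of -0.08 with overlapping groups. Cdc45, the helicase cofactor and the highest of the 4 at 28.0 FPKM (ENSMUSG00000000028, chr16:18780447-18811987, minus strand), stood at 28.4, 31.029 and 29.7 FPKM in wild type and 26.5, 25.5 and 27.0 FPKM in Ppp6r3 cKO. It fell by 0.17 (SE 0.0464, limma adjusted p = 0.0405). The Cdc45 call was lost after the GC and length correction (adjusted p = 0.0642), without wild-type replicate 2 or 3 (0.141 and 0.112) and without Ppp6r3 cKO replicate 1, 2 or 3 (0.0594, 0.111 and 0.0653). Mcm10, the lowest at 5.52 FPKM, had a log2 fold change of -0.02.

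No gene of GINS, the 4-subunit helicase cofactor, passed with limma. Gins3 had an unadjusted p under 0.05 and was called lower by voom. It stood at 6.82, 5.94 and 6.47 FPKM in wild type and 5.88, 4.80 and 5.01 FPKM in Ppp6r3 cKO (log2 fold change -0.29, limma adjusted p = 0.0640). Without Ppp6r3 cKO replicate 1 it passed (-0.38, adjusted p = 0.0245). Gins4, the highest at 44.7 FPKM, was at 0.06 and passed after the GC and length correction (0.14, adjusted p = 0.0184). Gins1 and Gins2 were at -0.13 and 0.02, and 67.3% of the Gins2 exon bases overlap Gse1 on the opposite strand.

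Both primase genes fell, while the polymerase alpha genes did not pass. Prim1, the catalytic primase subunit (ENSMUSG00000025395, chr10:128015168-128030037, plus strand), stood at 14.6, 14.1 and 13.5 FPKM in wild type and 10.3, 11.6 and 10.7 FPKM in Ppp6r3 cKO, and fell by 0.37 (SE 0.0589, limma adjusted p = 0.00606). Prim2, its regulatory subunit (ENSMUSG00000026134, chr1:33453810-33669795, minus strand), stood at 11.8, 11.7 and 11.9 FPKM and at 9.65, 10.7 and 10.2 FPKM, and fell by 0.21 (SE 0.0520, limma adjusted p = 0.0306). The Prim2 call was lost without wild-type replicate 1, 2 or 3 (adjusted p 0.0802, 0.0879 and 0.0983) and without Ppp6r3 cKO replicate 1 or 3 (0.0544 and 0.0707). Pola1, the catalytic polymerase subunit, was the lowest of the 4 at 2.07 FPKM (log2 fold change 0.08). Pola2 was the highest at 18.1 FPKM (-0.12, limma adjusted p = 0.163). The Pola2 values are whole fragments with an exon length of 2872 bases, not the 8294 bases of GENCODE.

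Of the 5 genes of polymerases delta and epsilon, only Pole passed. Pole, the catalytic subunit of the leading strand polymerase (ENSMUSG00000007080, chr5:110286306-110337474, plus strand), stood at 18.8, 18.3 and 19.3 FPKM in wild type and 14.8, 14.5 and 14.7 FPKM in Ppp6r3 cKO. It fell by 0.36 (SE 0.0415), with the smallest adjusted p of the members (limma adjusted p = 0.00171). Pole2, its partner subunit and the lowest of the 5 at 5.33 FPKM, was at 0.05 with overlapping groups. Pold2, the highest at 41.2 FPKM, was at 0.10, and Pold1, the catalytic subunit of the lagging strand polymerase, was at 0.05. Pold3 had groups that did not overlap (-0.19, limma adjusted p = 0.0749), was called lower by voom, and passed without Ppp6r3 cKO replicate 3 (-0.24, adjusted p = 0.0396).

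Of the clamp and its loader, Rfc4 fell and 5 genes did not pass. Rfc4, a small loader subunit (ENSMUSG00000022881, chr16:23113943-23127737, minus strand), stood at 44.7, 43.0 and 44.7 FPKM in wild type and 35.7, 38.6 and 39.8 FPKM in Ppp6r3 cKO, and fell by 0.22 (SE 0.0483, limma adjusted p = 0.0220). It was at -0.11 after the GC and length correction (adjusted p = 0.0711). The Rfc4 call was also lost without wild-type replicate 1, 2 or 3 (adjusted p 0.0704, 0.0564 and 0.0799), and 12.7% of its exon bases overlap Eif4a2 on the opposite strand. Pcna had a log2 fold change of -0.06, and Rfc3, the lowest at 12.6 FPKM, of 0.03. No gene of RPA, which coats single-stranded DNA, passed: none had an unadjusted p under 0.05, none was called by voom, and the 3 lay between -0.07 and 0.02. Rpa3 passed higher in 1 alternative, the GC and length correction with the replicate block (0.18, adjusted p = 0.0464). Rpa2 was the highest of them at 61.6 FPKM and Rpa1 the lowest at 22.8 FPKM.

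Lig1, the ligase of Okazaki fragments (ENSMUSG00000056394, chr7:13277283-13311433, plus strand), stood at 42.1, 40.6 and 39.9 FPKM in wild type and 36.9, 37.999 and 36.4 FPKM in Ppp6r3 cKO. It fell by 0.14 (SE 0.0393, limma adjusted p = 0.0489), and the call was lost on leaving out any 1 of the 6 libraries (adjusted p 0.0691 to 0.154). Fen1 was at 0.09, and 84.2% of its exon bases overlap Tmem258 and Gm10143 on the opposite strand. Of the nucleotide supply genes, Rrm2, the small subunit of ribonucleotide reductase (ENSMUSG00000020649, chr12:24708241-24714146, plus strand), stood at 20.6, 18.4 and 18.0 FPKM in wild type and 14.8, 16.1 and 14.1 FPKM in Ppp6r3 cKO. Rrm2 fell by 0.34 (SE 0.0691, limma adjusted p = 0.0156). Rrm1, the large subunit and the highest of the 3 at 24.6 FPKM, was at 0.10 with groups that did not overlap (limma adjusted p = 0.133). Tyms, thymidylate synthase, was the lowest at 5.01 FPKM (0.08).

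The ratio between partner genes within a library does not depend on how that library was scaled, but can move with GC content where the partners differ in it. The 12 pairs were chosen after the members' values were seen, so the ratios are a description with no test. In 11 of 12 the groups did not overlap. Every pair holds a member that changed, whose own groups did not overlap, so this count was largely set by the choice of pairs. The ratio of Mcm2 to Mcm5 was 0.547 ± 0.0186 in wild type and 0.734 ± 0.0183 in Ppp6r3 cKO (SD, n = 3 each), the largest relative rise of the 12. Cdt1 to Gmnn went from 0.382 ± 0.0115 to 0.494 ± 0.0567. Among the lower ratios, Pole to Pole2 went from 3.62 ± 0.366 to 2.71 ± 0.110, and Rrm2 to Rrm1 from 0.800 ± 0.0532 to 0.591 ± 0.0421. The Cdc7 to Dbf4 ratio went from 2.36 ± 0.121 to 1.90 ± 0.0950, Prim1 to Pola1 from 7.01 ± 0.275 to 5.12 ± 0.156, and Mcm8 to Mcm9 from 3.49 ± 0.0588 to 2.85 ± 0.0269. Rfc4 to Rfc2 was the pair that overlapped, with 2.69 ± 0.0592 and 2.53 ± 0.291. With the GC and length correction, the fitted log2 difference between partners moved by over 1.5 times in 3 of the 12 pairs. For Cdt1 to Gmnn, whose GC contents are 58.6% and 48.3%, it went from 0.36 to 0.23. For Cdc45 to Mcm10 it went from -0.15 to -0.09, and for Rfc4 to Rfc2 from -0.09 to 0.04.

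**Figure D3:**
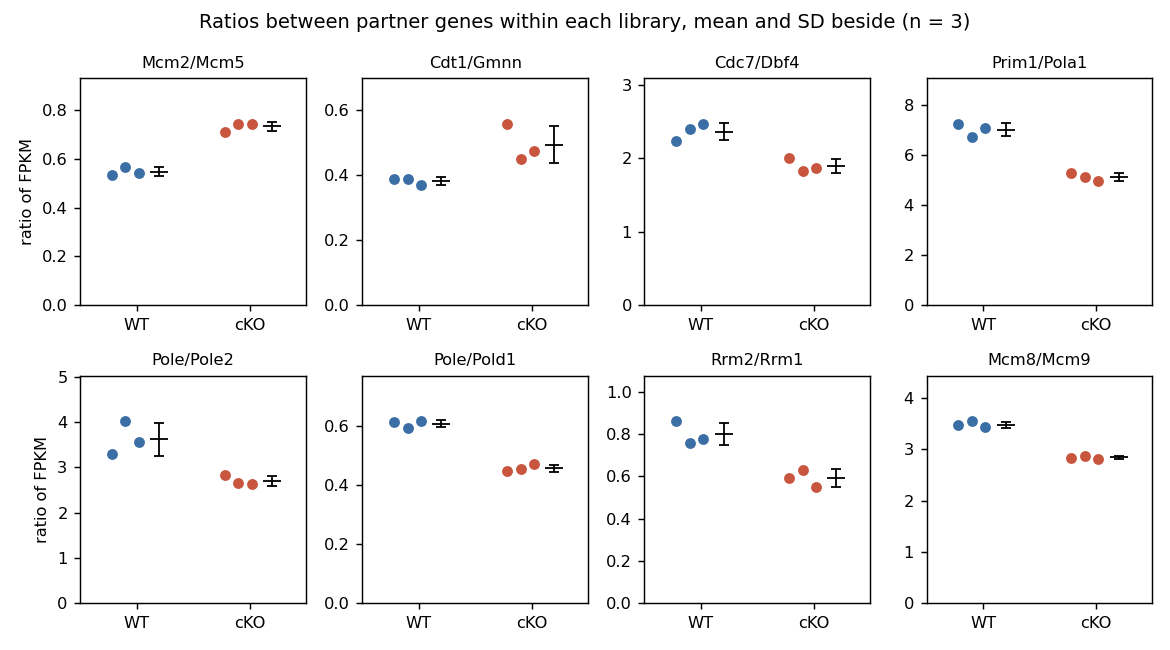
Ratio of FPKM between partner genes in each library, for 8 of the 12 pairs, with the group mean and SD (bars). Every Ppp6r3 cKO point is above every wild-type point for Mcm2 to Mcm5 and Cdt1 to Gmnn, and below in the other 6 panels.

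Ppp6r3 cKO replicate 1 had the lowest value of the 6 libraries in 18 members and the highest in 6, and wild-type replicate 1 had the highest in 19. The libraries differed with the GC content of genes. The median deviation of Ppp6r3 cKO replicate 1 ran from -0.11 in the lowest of 10 GC bins to 0.13 in the highest, and the median log2 fold change of the bins from -0.05 to 0.09. Members that fell had a GC content of 44.7% to 53.5%, and the 2 that rose 55.0% and 58.6%. A fit that removed the trend with GC content and length in each library called 11 members, while 19% of 17646 genes were called. Of these members 8 were lower (8.85% of genes were called lower) and 3 higher. Pole, Cdc7, Prim1, Mcm8, Mcm5, Prim2, Lig1 and Rrm2 passed lower in it, Cdt1, Mcm2 and Gins4 passed higher, and Rfc4 and Cdc45 did not pass. Among members that passed neither fit, Rpa3 went from 0.02 to 0.18, Pcna from -0.06 to 0.04 and Pold1 from 0.05 to -0.05.

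**Figure D4:**
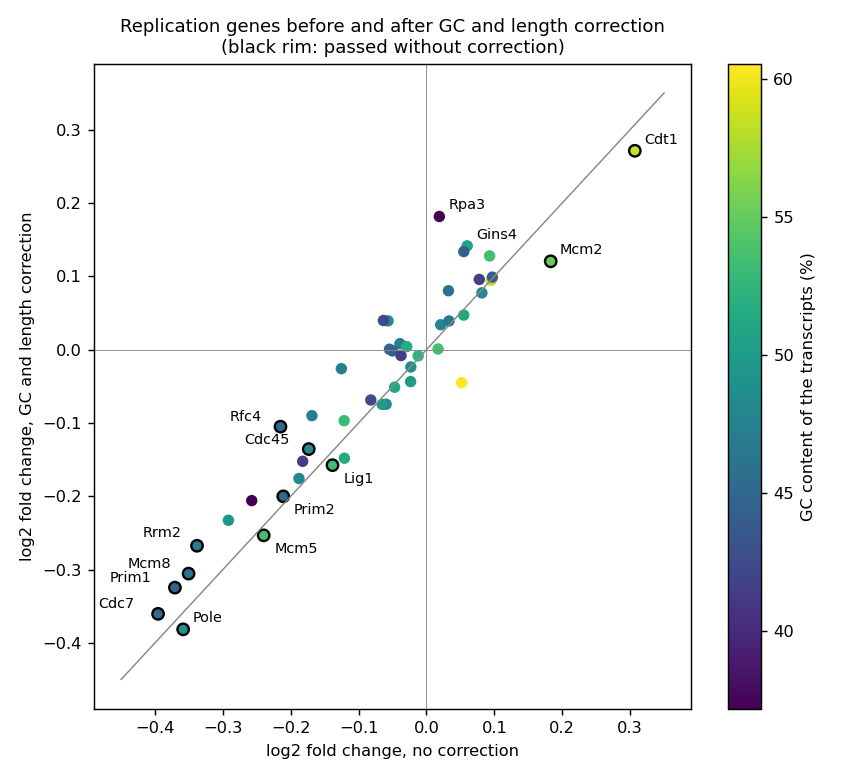
Log2 fold change of each member before (x axis) and after (y axis) the GC and length correction, coloured by GC content, with a black rim where the uncorrected value passed. Rfc4 moves from -0.22 to -0.11 and Mcm2 from 0.18 to 0.12, while Pole and Mcm5 move little.

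**Figure D5:**
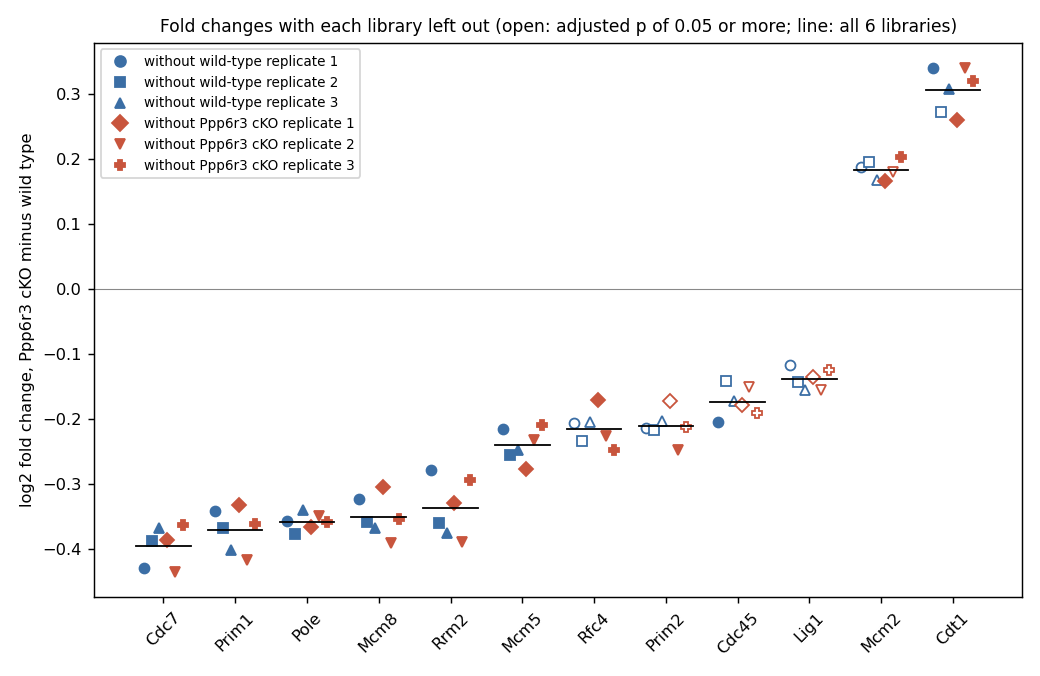
Log2 fold change of the 12 members that changed, with each library left out in turn (filled where the adjusted p was under 0.05) and with all 6 libraries (lines). The direction stays the same in all, and Pole, Cdc7, Prim1, Mcm8, Mcm5 and Rrm2 pass in all 6 refits.

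Beyond the 48 members, 61 further replication genes from 5 lists were read in the same way: 15 fell and 3 rose, 43 did not pass, and the median log2 fold change was -0.08. Of all tested genes 7.86% fell and 7.67% rose, shares that also stand beside the counts of every list below. All lists were chosen with earlier results of these data known. Of 17 factors of firing and fork stability 6 fell and none rose, among them Chek1 (-0.45), the checkpoint kinase, Atr (-0.42), the kinase above it, and Ticrr (-0.35), which helps load Cdc45. Of 6 clamp loader variants and cohesion genes, Esco2 (-0.49) and Atad5 (-0.43), which unloads PCNA, fell. Of 10 genes of replication-coupled chromatin, the histone chaperone Asf1b fell (-0.47), Mms22l fell (-0.19) and Chaf1a rose (0.29). Of 11 other fork subunits 3 fell, among them Top2a (-0.23) and Pole4 (-0.21), and Rnaseh2a rose (0.19). Of 17 other nucleotide supply genes Dck (-0.25) and Dtymk (-0.16) fell and Cad rose (0.19). After the GC and length correction Pole4 (-0.12, limma adjusted p = 0.180), Dtymk (-0.09, 0.105) and Cad (0.10, 0.141) did not pass. The other genes named from these 5 lists passed in it. Of 13 genes of licence turnover 3 fell and 2 rose, with Ccne2 at -0.52, Fzr1 at 0.24 and Dtl at -0.21.

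All 6 meiotic relatives of the replication proteins that were found fell, with a median of -1.34, including Meiob (-2.10), a relative of RPA, Spata22 (-1.72), its partner, and Hfm1 (-1.56), a meiotic helicase. Of 27 meiotic genes 26 fell, and their summed level was 756 to 764 FPKM in wild type and 441 to 459 FPKM in Ppp6r3 cKO. Stra8, which starts meiosis, fell by 1.34. Of 18 tested genes of undifferentiated spermatogonia 6 rose, Zbtb16 (0.50) among them, with sums of 136 to 145 and 169 to 181 FPKM. Of 7 genes of differentiating spermatogonia 4 rose and 1 fell, and Kit was at 0.07 and did not pass. Of the 10 shared germ cell genes 3 fell, and Ddx4 was at -0.16 and did not pass.

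Among somatic lists, 6 of 12 endothelial genes rose, with sums of 48.8 to 53.8 FPKM in wild type and 71.3 to 78.0 FPKM in Ppp6r3 cKO. Of 9 fibroblast and stroma genes 6 rose (500.04 to 509 and 599 to 623 FPKM). Of 10 macrophage and leukocyte genes 4 rose (112 to 117 and 149 to 160.2 FPKM). Of 5 tested erythroid genes 3 fell (319.99 to 356 and 203 to 223 FPKM). Of 14 Sertoli genes 3 rose and 1 fell, with Sox9 at 0.02 and not passing, of 10 Leydig genes 2 rose, and of 8 myoid genes 3 fell. Of 20 genes of G2 and mitosis 4 fell and 2 rose (median 0.03), with Bub1 at -0.55, Mki67 at -0.46 and Cenpf at -0.39. The part of these cell type and division markers in the members' changes was not tested.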

How the data were processed

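RNA of whole testis was sequenced in 3 wild-type and 3 Ppp6r3 cKO libraries. TRIzol extraction and a stranded mRNA kit were used, per the labels' protocols. HISAT2 2.0.5 aligned paired-end reads to mm10, per the series' design text, and DESeq2 is also named, per the submitters' processing notes. How fragments were counted, with which strand setting and gene models, is not given in the sources used here. Fragments of genes that overlap may therefore have been shared between them or left out of the count. The deposited values are FPKM made by the authors, for 54532 genes. In each library FPKM times GENCODE M21 exon length came in whole steps, within 0.01 fragments, for 31625 of the 32589 genes above 0 (97.0%). The other 964 were whole with another length, for which the tolerance grew with the count above 5000 fragments. The steps gave depths of 15970908 to 16606867 fragments, an inference from the values, and fragments summed over genes came to 98.9% to 100.7% of them.

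Tested genes had 10 or more recovered fragments in 3 or more libraries. log2(FPKM + 0.1) was fitted with limma 3.58.1 in R 4.3.3 (trend and robust, 2-sided). Adjustment was by Benjamini-Hochberg over all 17658 tested genes, with 0.05 as the threshold. Fold changes on this scale understate the change of low genes. The 48 members and all lists were chosen with earlier results of these data known. Members were named in full where they passed, with the highest and lowest of each complex. Of the other replication, licence turnover, meiotic relative and division lists, the 3 passing genes with the largest change were named, or all where fewer passed. The same rule covered the cell type lists, of which only counts, sums and the genes Stra8, Kit, Zbtb16, Ddx4 and Sox9 are given. Members near the threshold and other unpassed members were named as part of the list of 48. All 48 members and 234 of 235 list entries were matched by symbol (2 through RefSeq). GC content was taken over all bases of a gene's GENCODE transcripts. The fit was tested on simulated data. Alternatives were voom, other filters, pseudocounts and scalings, a fit that was not robust, a replicate block, a correction by natural splines of GC content and length (5 degrees of freedom each), a threshold of 0.01, and each library left out. Promoter sequences are RefSeq's on GRCm38.p6, the assembly also named mm10. Python 3.11.15, numpy 2.4.6, pandas 2.3.3 and scipy 1.17.1 were used.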

Additional observations from a re-analysis of the deposited data

How the results depend on the processing

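Over 18 alternatives no member that changed reversed. Pole, Cdc7, Prim1 and Mcm8 passed in all 18, and Mcm5 was lost only at an adjusted p under 0.01. With no filter on low values 7 members changed and 5 fell, beside 4.63% of 32589 genes changed, and Rrm2 (adjusted p = 0.0515) was among those lost. At an adjusted p under 0.01, where fewer genes can pass, 4 changed, 0 rose and 4 fell, beside 5.03% of tested genes changed. With voom 17 changed, of which 15 fell (12.2% of tested genes fell), and the cause of that difference was not tested. On leaving out 1 library, with fewer samples, 6 to 10 changed, 0 to 2 rose and 6 to 8 fell, beside 7.03% to 13.6% of tested genes changed. Deviations from the group means of same-numbered samples correlated at 0.0143, -0.00452 and -0.0073, which cannot exclude that these samples were paired. With the replicate block 10 changed, 8 fell and 2 rose (12.4% of tested genes changed), and 9 changed with the block and the GC and length correction (13.7%). Of the 36 members that did not pass, 13 changed sign under some alternative and 7 passed under at least 1. An exact permutation test of 3 against 3 libraries cannot go below p = 0.1.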
